A study of Mus musculus with 12 samples.

Results

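Trim28 and the Zfp900-series genes were followed in mouse embryonic stem cells (ESCs) and in epiblast-like cells (EpiLCs) made from them. The members were every gene whose symbol is Zfp9 followed by 2 more digits, 68 genes, together with Trim28, so 69 of the 57180 genes in the deposited tables. Of these, 65 had a mean of 0.5 CPM (a gene's counts scaled to a common library size) or more over the 12 libraries and are described here, and they are Trim28 and 64 Zfp900-series genes. Zfp972 (0.968 CPM) and Zfp967 (0.776 CPM) lay just inside that level and Zfp999 (0.377 CPM) just outside it, while Zfp957, Zfp966 and Zfp939 lay far below it with under 10 reads in all, and were not fitted.

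The cells were E14-DOX-CRISPRi ESCs, a picked clone of a male 129/Ola line in which doxycycline (DOX) switches on CRISPR interference, which lowers transcription at sites set by guide RNAs. The Neg line carried 4 scramble guides and the 3xKD line carried guides that bind where transcription of Pcx, Me1 and Me2 starts, genes which encode pyruvate carboxylase and a pair of malic enzymes. Each line was sequenced as ESCs in N2B27 with 2iLIF and as day 2 EpiLCs after 48 hours in FAX medium (Activin A, Fgf2 and XAV939), with DOX in both states per the study's methods, which gave 4 groups of 3 libraries: Neg ESC, 3xKD ESC, Neg EpiLC and 3xKD EpiLC. All 4 groups therefore carried the same induced system, the 3xKD line is a single line with its own guides, and knockdown and line cannot be told apart. The labels do not say whether the 3 libraries of a group came from separate cultures, while the study's methods describe its experiments in general as biological triplicates, so the p-values measure the spread between these libraries, which may in part be technical.

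KRAB zinc finger proteins bind DNA, often transposable elements, through arrays of C2H2 fingers, and their KRAB domain recruits TRIM28 (KAP1). TRIM28 in turn brings the H3K9 methyltransferase SETDB1, HP1 proteins and histone deacetylases, and early embryos and ESCs depend on this machinery to keep many retroelements and imprinted loci silent. The genes multiplied by tandem duplication, so that many sit beside close copies of themselves in clusters.

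Libraries held 11221023 to 19652197 estimated counts. Pcx, Me1 and Me2 were lower in 3xKD, by log2 fold changes of -0.89 to -1.14 in ESCs and -0.98 to -1.05 in EpiLCs. The state markers followed the titles, with 8 naive genes (Nanog, Esrrb, Klf2, Klf4, Tfcp2l1, Zfp42, Prdm14, Tbx3) summing to 3986 to 5258 CPM in ESC libraries and 308 to 469 CPM in EpiLC libraries. The 2 lines differed in these markers too. In ESCs the naive sum was 5099 to 5258 CPM in Neg and 3986 to 4062 CPM in 3xKD, where Klf2 (log2 fold change -0.83), Klf4 (-0.65) and Zfp42 (-1.27) were called lower. In EpiLCs it was 308 to 322 CPM in Neg and 454 to 469 CPM in 3xKD, and the sum of Fgf5, Otx2, Pou3f1 and Dnmt3b averaged 1748 and 801 CPM. Primitive endoderm markers (Gata4, Gata6, Sox17, Pdgfra) summed to 19.99 to 23.1 CPM in Neg ESCs and 27.6 to 30.1 CPM in 3xKD ESCs, and to 22.2 to 26.7 CPM and 17.5 to 19.2 CPM in EpiLCs, with Gata6 called higher in 3xKD ESCs (0.78) and lower in 3xKD EpiLCs (-1.02). Fibroblast markers (Col1a1, Col1a2, Col3a1, Thy1) summed to 4.20 to 5.41 CPM in Neg ESCs and 7.80 to 8.62 CPM in 3xKD ESCs, and to 3.51 to 4.56 CPM and 5.62 to 7.07 CPM in EpiLCs, with Thy1 called higher in 3xKD in both states (0.85 and 0.77). The 6 2-cell-like genes (Zscan4c, Zscan4d, Zfp352, Tcstv1, Tcstv3, Usp17lc) summed to 167 to 182 CPM in Neg EpiLCs against 334 to 368 CPM in 3xKD EpiLCs. In ESCs the lines overlapped, at 201 to 216 CPM in Neg and 190 to 207 CPM in 3xKD. The part of these differences in the results below was not tested. In bulk RNA, fewer cells of a type and less RNA per cell cannot be told apart.

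The Zfp900-series genes lay in 26 blocks of neighbours under 1 Mb apart on GRCm39. The largest held 16 members on chromosome 4 (145237287 to 147932882), and blocks of 10 each lay on chromosome 17 (21787117 to 23086292) and chromosome 2 (175214229 to 177720294). A KRAB stretch was recognised in the annotated proteins of 60 of the 64 described members together with 3 or more C2H2 fingers, and the number of fingers reached 21. The exceptions were Zfp956 (6 fingers and no recognised KRAB stretch), Zfp993 (KRAB and 2 fingers), Zfp972 (KRAB and 0 fingers) and Zfp996, which is annotated as a processed pseudogene. The median protein identity to the nearest other member was 68.3%. Zfp966, Zfp967, Zfp968 and Zfp969 encode identical proteins, as do Zfp965 and Zfp973.

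Zfp936 and Zfp959 were the 2 members that fell most in 3xKD ESCs. Zfp985 and Zfp987 lie in the chromosome 4 block with other members between them, and Zfp956 did not pass the test in any comparison. The stretches before the starts of these 5 members are shown to compare them. They were read from GRCm39, plus strand, 5′ to 3′, ending before the first annotated transcribed base of the gene's most abundant coding transcript, at chr7:42826829-42826978, chr17:56198927-56199059, chr4:147637529-147637678, chr4:146033732-146033820 and chr6:47930174-47930323. The Zfp936 stretch lies within an intron of a longer Zfp936 transcript, the Zfp956 stretch overlaps an exon of a noncoding Zfp783 transcript, and the others overlap no annotated exon. Capitals mark CCAAT, or ATTGG where it is on the other strand.
Zfp936: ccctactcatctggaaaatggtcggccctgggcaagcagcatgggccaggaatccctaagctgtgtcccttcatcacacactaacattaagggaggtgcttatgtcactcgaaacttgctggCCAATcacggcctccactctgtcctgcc
Zfp959: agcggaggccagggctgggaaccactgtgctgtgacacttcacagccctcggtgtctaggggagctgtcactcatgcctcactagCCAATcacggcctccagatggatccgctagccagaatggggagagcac
Zfp985: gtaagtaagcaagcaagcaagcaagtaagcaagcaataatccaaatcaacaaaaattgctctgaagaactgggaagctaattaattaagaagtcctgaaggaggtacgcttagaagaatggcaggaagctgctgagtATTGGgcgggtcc
Zfp987: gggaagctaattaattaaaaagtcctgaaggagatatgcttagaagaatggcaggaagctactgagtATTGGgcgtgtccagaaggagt
Zfp956: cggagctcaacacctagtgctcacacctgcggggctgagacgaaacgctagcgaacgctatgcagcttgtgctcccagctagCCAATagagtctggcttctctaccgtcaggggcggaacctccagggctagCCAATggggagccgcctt

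Zfp936, on chromosome 7, and Zfp959, on chromosome 17, shared an unbroken run of 17 letters around the CCAAT. Zfp985 and Zfp987 had the same letter at 75 of 80 aligned positions. The letters CCAAT stood on either strand in the stretch from 250 bases before to 50 after the start of 47 of 63 members with an annotated coding start, or 74.6%, against 40.0% of 14168 promoters of the same length and 62.7% of 233 other KRAB zinc finger genes. The longer word GCCAATCA, which contains CCAAT and was picked after the member promoters had been searched, stood in 33.3% of members, 25.8% of the other KRAB zinc finger genes and 5.45% of all promoters. TATAAA stood in 4.76% of members and 8.61% of all promoters. Member promoters held a median of 5 CpG and 49.0% GC, against 8 CpG and 50.7% for the other KRAB zinc finger genes and 17 CpG and 58% over all promoters. Copies made by duplication share these letters, so the promoters are not independent. In 3xKD ESCs, 24 of the 47 members with CCAAT and 9 of the 16 without it were called lower, with median log2 fold changes of -0.60 in each set. For GCCAATCA, 9 of 21 members with it and 24 of 42 without it were called lower in ESCs (medians -0.53 and -0.60), and 9 of 21 and 9 of 42 in EpiLCs (medians -0.60 and -0.37). None of these differences was tested. The shares of all genes at 0.5 CPM or more called lower in 3xKD were 9.78% in ESCs and 7.82% in EpiLCs.

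Trim28 (ENSMUSG00000005566, chromosome 7, 12733041 to 12764976) was the most abundant member in every group. Its level was 1654, 1781 and 1810 CPM in the Neg ESC libraries and 1580, 1579 and 1558 CPM in 3xKD ESCs, and 2124, 2059 and 2174 CPM in Neg EpiLCs and 1898, 1833 and 1770 CPM in 3xKD EpiLCs. The libraries of the 2 lines did not overlap in either state. Trim28 was lower in 3xKD by a log2 fold change of -0.15 in ESCs (SE 0.0390, adjusted p = 0.00429) and -0.21 in EpiLCs (SE 0.0389, adjusted p = 0.000356), and higher in EpiLCs than ESCs by 0.28 in Neg (adjusted p = 1.50e-05) and 0.22 in 3xKD (adjusted p = 0.000169). None of these passed the fold limit of 0.58 on the log2 scale that, with an adjusted p under 0.01, defines a call here, and the 3xKD difference did not differ between the states (adjusted p = 0.592). Per length, Trim28 averaged 756 TPM, a level scaled for transcript length, while the Zfp900-series genes had a median of 5.73 TPM and the highest, Zfp978, had 107 TPM. The chromosome 4 block held 63.1% of their summed TPM.

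The 3xKD line was compared with Neg in ESCs to ask which members differ when the 3 enzymes are lowered in the naive state. In ESCs 33 of the 65 members were called lower and 0 higher, with a median log2 fold change of -0.59. Over all 17049 genes at 0.5 CPM or more, 9.78% were called lower and 12.3% higher, with a median of 0.01. Leaving the fold limit aside, 47 members were lower at an adjusted p under 0.01. By that limit 4012 of the 17049 genes were lower and 3915 higher. At an unadjusted p under 0.05, 2 members were higher and 51 lower in edgeR's quasi-likelihood test, and DESeq2 called 33 lower and 0 higher. Shares over all genes at the unadjusted limit are not given, here or below. With transcript-length offsets, which correct for shifts between isoforms of different length, 22 were called lower.

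Zfp936 had the largest fall. It gave 107, 116 and 123 CPM in Neg ESCs and 32.9, 30.4 and 28.6 CPM in 3xKD ESCs, and the 2 groups were far apart. The log2 fold change was -1.92 (SE 0.0629, adjusted p = 1.79e-12). Zfp959 followed, at 7.09, 9.43 and 7.85 CPM in Neg and 1.97, 2.38 and 2.68 CPM in 3xKD (log2 fold change -1.80, SE 0.144, adjusted p = 3.25e-08). Zfp935, on chromosome 13, gave 18.1, 18.4 and 15.7 CPM in Neg and 4.12, 8.35 and 7.45 CPM in 3xKD (log2 fold change -1.38, SE 0.212, adjusted p = 4.84e-05). All 3 encode KRAB zinc finger proteins, and the groups did not overlap. Zfp997 (-1.36), Zfp933 (-1.25) and Zfp977 (-1.18) came next.

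In EpiLCs the same comparison called 18 members lower and 0 higher, with a median of -0.38, against 7.82% of genes at 0.5 CPM or more called lower and 11.4% higher. Of the 33 members called lower in ESCs, 17 were also called in EpiLCs, and these were 17 of the 18 called there. At an unadjusted p under 0.05, 48 were lower and 2 higher in edgeR, and DESeq2 called 17 lower and 0 higher. Zfp959 gave 12.1, 11.1 and 11.2 CPM in Neg EpiLCs and 4.59, 4.41 and 4.81 CPM in 3xKD EpiLCs (log2 fold change -1.32, SE 0.129, adjusted p = 3.69e-07). Zfp936 gave 181, 159 and 173 CPM against 70.9, 69.4 and 69.4 CPM (log2 fold change -1.29, SE 0.0578, adjusted p = 5.06e-11). Zfp997 gave 137, 132 and 141 CPM against 58.7, 57 and 53.2 CPM (log2 fold change -1.28, SE 0.050, adjusted p = 1.32e-11). Each of these 3 genes was separated in all libraries, as the plot of levels by library shows.

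**Figure D1:**
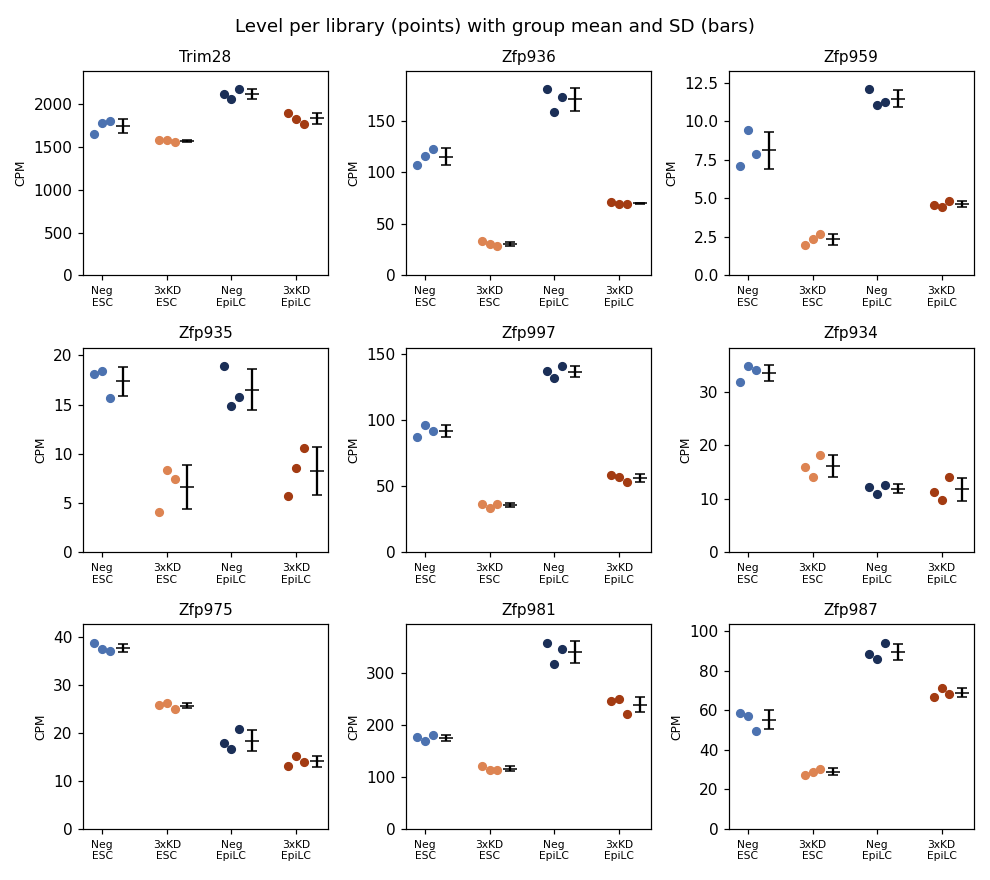
CPM of Trim28 and 8 Zfp900-series genes in each of the 12 libraries (points, coloured by group), with the group mean and SD (n = 3) as bars beside them. Zfp936, Zfp959 and Zfp997 lie lower in 3xKD than in Neg in both states, while Zfp934 is lower in 3xKD in ESCs only.

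Across the members, 53 of 65 had a log2 fold change below 0 in both states, 6 were above 0 in both, and 6 had different signs or a value of 0. Those above 0 in both were Zfp940, Zfp954, Zfp956, Zfp974, Zfp993 and the pseudogene Zfp996. Taken state by state, 56 of the 64 Zfp900-series genes lay below 0 in ESCs and 54 in EpiLCs. The numbers for the 17049 genes at 0.5 CPM or more were 8335 and 8231. Their share below 0 in both states is not given. Zfp956 gave 13.2 to 15.1 CPM in Neg ESCs and 14.1 to 16.2 CPM in 3xKD ESCs (log2 fold change 0.10, SE 0.104, adjusted p = 0.491). Zfp993, which lies inside the chromosome 4 block and has only 2 recognised fingers, gave 28.5 to 34.7 CPM in Neg ESCs and 34.4 to 37.2 CPM in 3xKD ESCs. Its log2 fold change in EpiLCs was 0.39 (SE 0.0787, adjusted p = 0.000716), the one member higher at an adjusted p under 0.01, although it was under the fold limit.

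**Figure D2:**
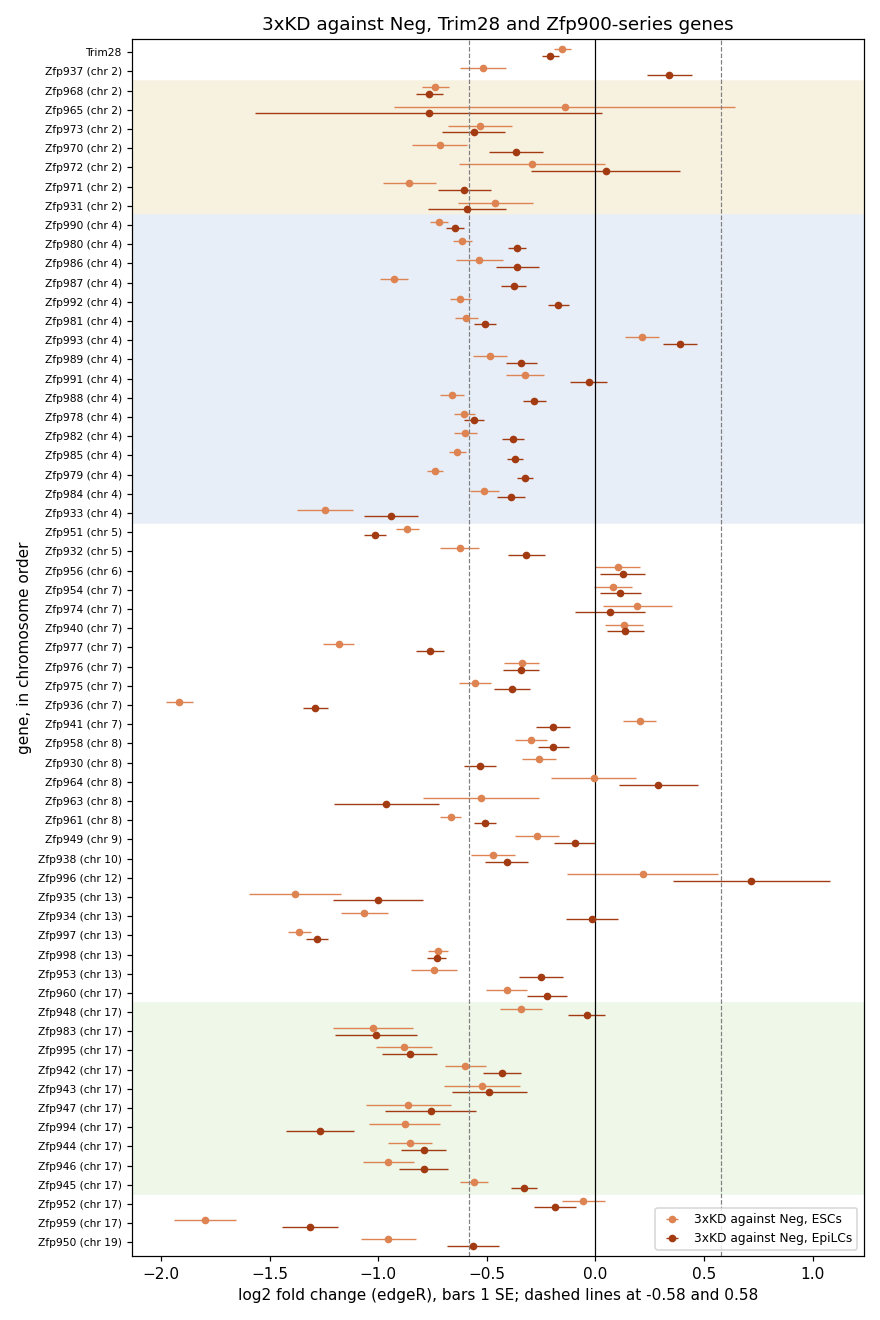
Log2 fold change of 3xKD against Neg in ESCs (light) and EpiLCs (dark) for Trim28 and 62 Zfp900-series genes in chromosome order, with bars of 1 SE and dashed lines at the fold limit of 0.58 either side of 0. Shaded bands mark the blocks on chromosomes 2, 4 and 17, and nearly all points lie left of 0. Zfp967 and Zfp969 are left out because their counts are at 0 in whole groups.

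The blocks are given by their counts, medians and sums, and differences between them were not tested. For scale, 9.78% of all genes at 0.5 CPM or more were called lower in ESCs and 7.82% in EpiLCs. In the chromosome 4 block 11 of 16 members were called lower in ESCs (median -0.61) and 2 of 16 in EpiLCs (median -0.37), the 2 being Zfp990 and Zfp933. Its summed level was 1576 to 1613 CPM in Neg ESCs and 1010 to 1061 CPM in 3xKD ESCs, and 2261 to 2411 CPM against 1760 to 1821 CPM in EpiLCs. In the chromosome 17 block 7 of 10 were called lower in ESCs (median -0.86) and 6 of 10 in EpiLCs (median -0.77). The chromosome 2 block had 3 of 9 described members called lower in ESCs and 2 in EpiLCs. As sums over the block, 3xKD differed from Neg in ESCs by -0.61 on the log2 scale for chromosome 4, -0.68 for chromosome 17 and -0.69 for chromosome 2, and in EpiLCs by -0.40, -0.49 and -0.70. The chromosome 7 block of 4 that holds Zfp936 had 2 called lower in each state (sums -1.19 and -0.96), and the chromosome 8 block of 3 had 0 called lower in ESCs and 1 in EpiLCs (sums -0.25 and -0.48). On chromosome 13, all 3 described members of the block from 66261294 to 67508757 were called lower in ESCs, and 2 of them in EpiLCs. Of the 17 described members that stand alone, 5 were called lower in ESCs and 2 in EpiLCs, 6 were above 0 in ESCs, and the median ESC value was -0.30. Zfp951 on chromosome 5 was one of those called, at 55.3 to 58.4 CPM in Neg ESCs and 30.2 to 32.1 CPM in 3xKD ESCs, and Zfp959 was another. Over the 12 chromosomes that hold members, the median log2 fold change of the other genes lay between -0.03 and 0.05 in both states.

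Other zinc finger genes inside the blocks moved the same way. There were 46 non-members with 3 or more fingers in blocks of 3 or more members. Of these, 17 (37.0%) were called lower and 1 (2.2%) higher in ESCs, with a median of -0.59. The 8 coding genes of those intervals without recognised fingers held 2 called lower (25.0%) and 0 higher, with a median of -0.55. Of 71 noncoding genes and pseudogenes there, 23 (32.4%) were called lower and 4 (5.6%) higher, with a median of -0.56. Over all genes at 0.5 CPM or more, 9.78% were called lower and 12.3% higher. In EpiLCs 10, 1 and 15 genes of these sets were called lower and 1, 0 and 5 higher. Their EpiLC medians were -0.37, -0.19 and -0.33. Over all genes 7.82% were called lower there and 11.4% higher. The guides of the 3xKD line matched their own targets without a mismatch. Within 1000 bases of the starts of 63 Zfp900-series genes, the closest site beside an NGG had 6 mismatches over 19 bases. That site was in Zfp972, and Zfp936 had 8 mismatches. The median of the closest site was 8 mismatches in these genes and 7 over all promoters searched. Sites farther away were not searched, and binding of the guides elsewhere was not tested.

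Reads of near-identical genes cannot be assigned with certainty, and Salmon divides them, which leaves sums that are not whole numbers. Such sums (more than 0.01 from a whole number) occurred in 10 or more libraries for 48 of the 64 described Zfp900-series genes, so single values within blocks are less sure than the sum of a block. For 10 genes the sums were whole in at least 10 libraries. Among these, 3 were called lower in ESCs and 1 in EpiLCs (medians -0.32 and -0.15), against 30 and 17 of the other 54 (medians -0.60 and -0.39). Among all genes at 0.5 CPM or more, 9.78% were called lower in ESCs and 7.82% in EpiLCs. Zfp961 is the most abundant of the genes with whole sums in all 12 libraries. It gave 152, 163 and 160 CPM in Neg ESCs and 102, 94.2 and 103 CPM in 3xKD ESCs (log2 fold change -0.67, SE 0.0490, adjusted p = 1.21e-08), and -0.51 in EpiLCs. With transcript-length offsets its ESC value was -0.54 and no longer a call, and its EpiLC value was -0.66 and became one.

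Members with a close relative in the series and members without one differed in their values. Of the 12 members whose nearest other member had under 50% protein identity, 3 were called lower in ESCs and 1 in EpiLCs, with medians of -0.16 and -0.07. Of the 30 at 50 to 75% identity, 16 and 9 were called lower (medians -0.60 and -0.45), and of the 21 at 75% or more, 14 and 8 (medians -0.66 and -0.56). The shares called lower among all genes at 0.5 CPM or more were 9.78% in ESCs and 7.82% in EpiLCs. Sums that were not whole in 10 or more libraries moved with identity, in 5 of 12, 24 of 30 and 19 of 21 genes, and their part in this difference was not tested. The limits of identity were chosen after the values had been seen.

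**Figure D3:**
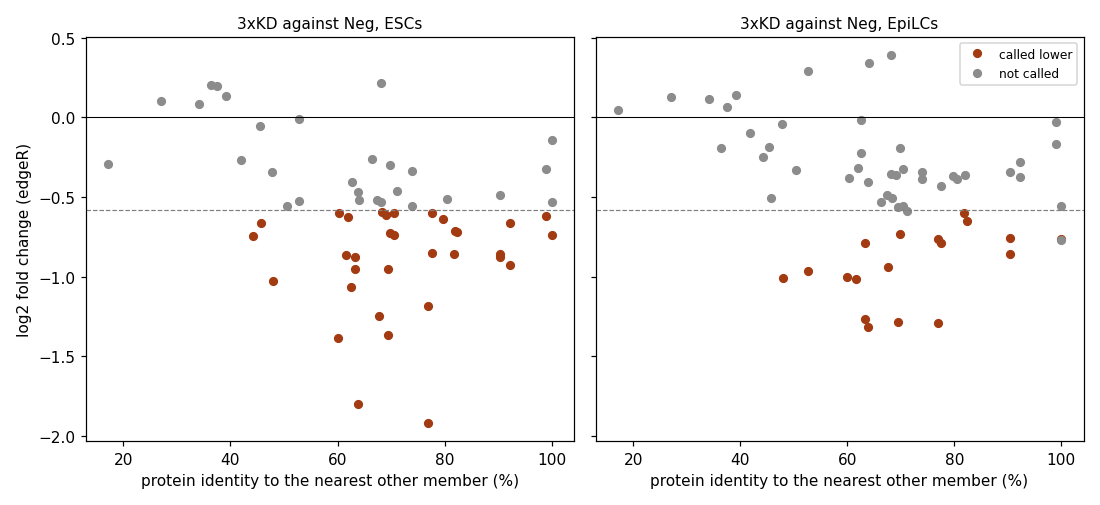
Log2 fold change of 3xKD against Neg in ESCs (left) and EpiLCs (right) against the protein identity of each Zfp900-series gene to its nearest other member, 1 point a gene, with genes called lower in red. Most genes under 50% identity lie near 0, while those at 60% or more lie mainly below 0. Exceptions under 50% are Zfp953 (-0.75 in ESCs), Zfp961 (-0.67) and Zfp983 (-1.025), all called lower in ESCs.

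Other zinc finger genes give the scale. In ESCs 33 of 64 Zfp900-series genes (51.6%) were called lower, as were 55 of 148 other numbered Zfp genes with a KRAB stretch (37.2%), 26 of 85 KRAB zinc finger genes under other names (30.6%) and 37 of 123 other numbered Zfp genes with fingers and no KRAB stretch (30.1%). Their median log2 fold changes were -0.60, -0.45, -0.41 and -0.27. In EpiLCs the shares were 28.1%, 27.7%, 21.2% and 21.1%. All genes at 0.5 CPM or more had 9.78% called lower in ESCs and 7.82% in EpiLCs. The lower values were thus not limited to genes with a KRAB stretch, and the differences between these classes were not tested.

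**Figure D4:**
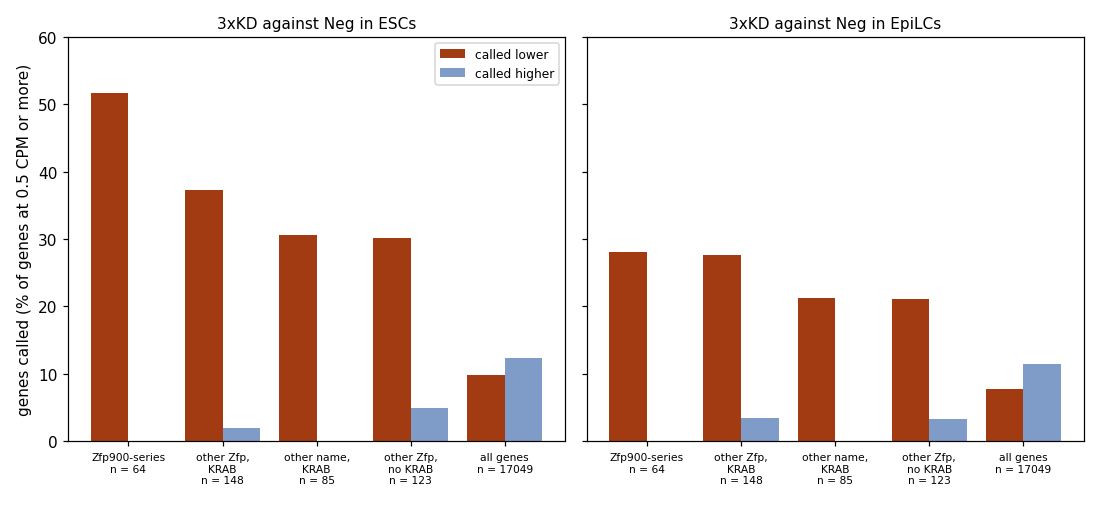
Percentage of genes called lower (red) and higher (blue) in 3xKD against Neg in ESCs (left) and EpiLCs (right), for the Zfp900-series genes, 3 other classes of zinc finger genes and all genes at 0.5 CPM or more. In ESCs the share called lower is 51.6% for the Zfp900-series and 9.8% for all genes.

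The change from ESC to EpiLC was compared within each line. In Neg, 14 members were called higher in EpiLCs and 2 lower, with a median of 0.22, against 13.5% of genes at 0.5 CPM or more called higher and 15.7% lower. In 3xKD, 21 were called higher and 2 lower, with a median of 0.41, against 13.2% and 13.4%. Of the members called higher, 10 were shared, which is 10 of 14 in Neg and 10 of 21 in 3xKD. The chromosome 4 block supplied 7 of the 14 and 11 of the 21, and 14 of its 16 members were above 0 in Neg and all 16 in 3xKD. Of the 17049 genes at 0.5 CPM or more, 8470 lay above 0 in Neg and 8421 in 3xKD.

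Zfp981, of the chromosome 4 block, had the largest rise in Neg among members measured in both states, from 177, 169 and 180 CPM in ESCs to 357, 316 and 346 CPM in EpiLCs (log2 fold change 0.96, SE 0.0510, adjusted p = 9.68e-11). Zfp963 rose from 2.13, 2.27 and 2.04 CPM to 3.76, 4.23 and 4.04 CPM (log2 fold change 0.90, SE 0.243, adjusted p = 0.00590), a call lost when any 1 of 5 libraries was left out. Zfp934 fell from 31.8, 34.8 and 34.1 CPM to 12.2, 10.9 and 12.6 CPM (log2 fold change -1.50, SE 0.112, adjusted p = 7.80e-09). Zfp975 fell from 38.6, 37.4 and 37.0 CPM to 17.8, 16.6 and 20.7 CPM (log2 fold change -1.03, SE 0.0763, adjusted p = 6.60e-09). The 2 states did not overlap for any of these genes.

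Zfp967 was also called higher in Neg EpiLCs, but its counts were 0 in all 6 ESC libraries and 89.9, 0 and 29.6 in Neg EpiLCs, a mean of 2.48 CPM and at least 11.9-fold higher than a floor of 3 counts per library. Its protein-identical neighbour Zfp969 gave 0, 58.8 and 44.3 counts in Neg ESCs and 0 in every EpiLC library, and was not called. Libraries of 1 group thus differed between 0 and many counts for these copies, and the pair is not interpreted further.

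In 3xKD, Zfp987 rose most, from 27.1, 28.9 and 30.6 CPM in ESCs to 66.7, 71.4 and 68.4 CPM in EpiLCs (log2 fold change 1.25, SE 0.0641, adjusted p = 7.41e-11). Zfp936 rose from 32.9, 30.4 and 28.6 CPM to 70.9, 69.4 and 69.4 CPM (log2 fold change 1.19, SE 0.0638, adjusted p = 1.34e-10). Zfp948 rose from 8.97, 7.44 and 9.28 CPM to 17.7, 18.6 and 19.0 CPM (log2 fold change 1.11, SE 0.0918, adjusted p = 3.47e-08). Zfp975 fell in this line too, from 25.7, 26.1 and 25.0 CPM to 13, 15.3 and 14.0 CPM (log2 fold change -0.86, SE 0.0795, adjusted p = 1.33e-07). Zfp941 fell from 22.1, 18.4 and 20.1 CPM to 12.8, 14.1 and 12.9 CPM (log2 fold change -0.61, SE 0.0772, adjusted p = 5.84e-06), just past the fold limit and under it with any of 3 other scalings. No member was called in opposite directions in the 2 lines.

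**Figure D5:**
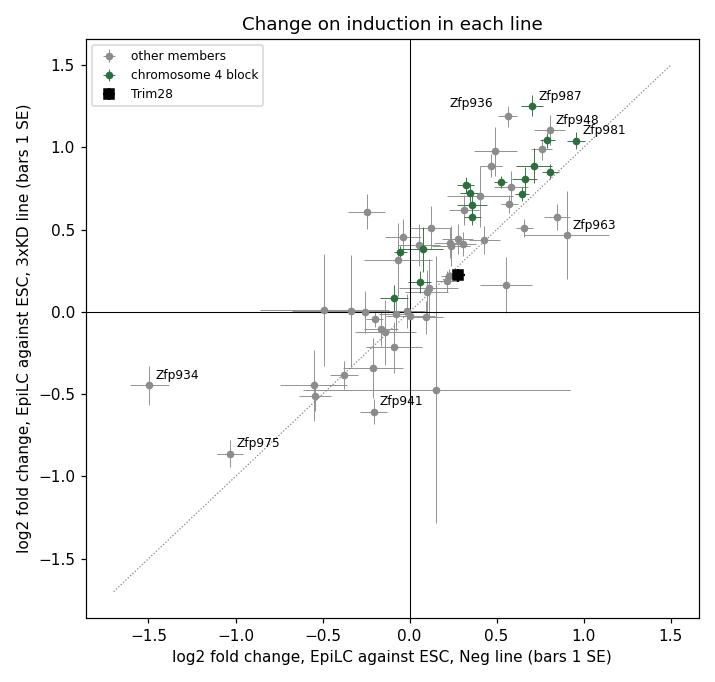
Log2 fold change of EpiLCs against ESCs in the Neg line (x axis) and in the 3xKD line (y axis) for Trim28 and 62 Zfp900-series genes, with bars of 1 SE and a dotted line of equal change. Genes of the chromosome 4 block (green) lie mainly towards the upper right, and Zfp934 and Zfp975 lie lower left.

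The difference of the 3xKD effect between the states was tested directly. It was called for 10 members, all with a higher value in EpiLCs than in ESCs, against 7.09% of genes at 0.5 CPM or more called in that direction and 7.85% in the other, where 0 members were called. In that other direction 2 members had an unadjusted p under 0.05 in edgeR, and DESeq2 called 10 and 0. Zfp934 differed most. It gave 16, 14.1 and 18.2 CPM in 3xKD ESCs against 31.8 to 34.8 CPM in Neg (log2 fold change -1.06, adjusted p = 5.45e-07), but 11.4, 9.85 and 14.1 CPM in 3xKD EpiLCs against 10.9 to 12.6 CPM in Neg (-0.02, adjusted p = 0.941). The difference was 1.05 (SE 0.162, adjusted p = 0.000218). Zfp937 was below 0 in ESCs (-0.52) and above 0 in EpiLCs (0.34), a difference of 0.86 (SE 0.148, adjusted p = 0.000590), and for Zfp936 the difference was 0.63 (SE 0.0849, adjusted p = 6.48e-05). Zfp937 gave 10, 10.5 and 11.5 CPM in Neg ESCs and 8.11, 6.65 and 7.71 CPM in 3xKD ESCs. In EpiLCs it gave 8.93, 8.46 and 9.67 CPM in Neg and 12.3, 11.4 and 10.6 CPM in 3xKD, so its lines changed places. Its 3xKD change was not a call in either state (edgeR adjusted p = 0.00077 in ESCs and 0.0146 in EpiLCs).

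Of the other 7, Zfp987 (difference 0.55), Zfp992, Zfp979, Zfp988, Zfp985 and Zfp980 lie in the chromosome 4 block and Zfp977 lies near Zfp936 on chromosome 7. Zfp992 gave 87.6, 84.2 and 96.0 CPM in Neg ESCs and 59, 55.5 and 59.8 CPM in 3xKD ESCs, and 109, 112 and 114 CPM against 102, 96.7 and 99.6 CPM in EpiLCs (difference 0.45, SE 0.0674, adjusted p = 0.000157). Zfp977 gave 59.6, 60.4 and 65.0 CPM against 25.2, 28.4 and 28.1 CPM in ESCs, and 89.5, 75.8 and 91.0 CPM against 51.5, 50.8 and 48.8 CPM in EpiLCs (difference 0.42, SE 0.0953, adjusted p = 0.00535). Zfp979 gave 155, 160 and 165 CPM against 98.0, 93.2 and 96.7 CPM in ESCs, and 159, 149 and 155 CPM against 124, 125 and 121 CPM in EpiLCs (difference 0.41, SE 0.0510, adjusted p = 2.43e-05). In all 3 genes the lines were separate in both states and closer together in EpiLCs. Zfp988 gave 88.4, 92.0 and 91.2 CPM against 57.6, 52.8 and 61.5 CPM in ESCs, and 117, 108 and 120 CPM against 96.2, 89.3 and 98.5 CPM in EpiLCs (difference 0.38, adjusted p = 0.00258). Zfp985 gave 94.7, 97.2 and 96.3 CPM against 63.0, 58.8 and 63.8 CPM in ESCs, and 135, 137 and 143 CPM against 108, 107 and 105 CPM in EpiLCs (difference 0.27, adjusted p = 0.00240). Zfp980 gave 287, 271 and 285 CPM against 182, 176 and 194 CPM in ESCs, and 475, 478 and 507 CPM against 398, 362 and 377 CPM in EpiLCs (difference 0.25, adjusted p = 0.00941). The test of Zfp980 was lost without any of 8 libraries. With transcript-length offsets 3 members were called, Zfp934, Zfp936 and Zfp979, and the difference of Zfp985 was 0.08.

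Genes that act with TRIM28 or in H3K9 silencing were called in both directions. Of 24 listed genes of the TRIM28 complex and H3K9 silencing, 3 were called lower and 2 higher in 3xKD ESCs, with a median of -0.01, which is 12.5% and 8.3% against 9.78% and 12.3% of all genes at 0.5 CPM or more. In EpiLCs 5 were called lower and 1 higher, with a median of -0.20, which is 20.8% and 4.2% against 7.82% and 11.4%. Setdb1, the H3K9 methyltransferase, gave 287 to 299 CPM in Neg ESCs and 191 to 195 CPM in 3xKD ESCs (log2 fold change -0.61), and its EpiLC value was -0.37. Tasor, of the HUSH complex, was at -0.80 in both states, and Smarcad1, a chromatin remodeller that binds TRIM28, was at -0.91 and -0.72. Trim66 was called higher in both states (0.88 and 0.68) and Uhrf1 in ESCs (0.62). For the difference between states, 11 of the 24 were called with a lower value in EpiLCs and 2 with a higher one (7.85% and 7.09% of all genes at 0.5 CPM or more), the opposite order to the Zfp900-series members. Cbx1, which encodes HP1 beta, had the largest such difference, at -0.52 (adjusted p = 8.16e-05).

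Of 6 KRAB zinc finger genes with known targets outside the series, 4 were called lower in 3xKD ESCs and 3 in EpiLCs, and 0 higher. In EpiLCs 2 of the 6 lay above 0. Among all genes at 0.5 CPM or more, 9.78% were called lower and 12.3% higher in ESCs, and 7.82% and 11.4% in EpiLCs. The shares called lower among other numbered Zfp genes with a KRAB stretch were 37.2% and 27.7%. Zfp568 was at -0.83 in ESCs and -0.55 in EpiLCs, and Zfp445 at -0.51 and -0.81. Zfp708, at 0 to 1.58 CPM in Neg ESCs, was at -1.30 and 0.16 and was not called in either state. Zfp809, which silences murine leukaemia virus elements, gave 96.9 to 101 CPM in Neg ESCs and 57.1 to 61.1 CPM in 3xKD ESCs (log2 fold change -0.75) and was at -0.62 in EpiLCs. Zfp57, a guardian of imprints, was at -0.58 in ESCs and 0.11 in EpiLCs, and the difference between states was 0.70 (adjusted p = 2.30e-07). Zfp819 was lower by -2.29 in ESCs, where Neg libraries held 0.886 to 1.27 CPM, and by -1.30 in EpiLCs.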

How the data were processed

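RNA was sequenced from 12 libraries, 3 in each of 4 groups taken from the sample titles. Per the labels, ribosomal RNA was depleted and libraries were stranded, and the submitters' processing notes name bcl2fastq, Trim Galore 0.6.7, STAR 2.7.9a and Salmon 1.10.1 on GRCm39. In the labels, the entry for cell type follows the line (ESCs for Neg, EpiLCs for 3xKD) and contradicts 6 titles, so it was not used, and the molecule entry reads polyA RNA. The authors deposited Salmon tables per transcript with expected counts, TPM and effective lengths. These estimated counts were summed per gene through the deposited transcript map and rounded, and TPM was summed likewise and used only to compare levels between genes. Salmon divides reads that fit several genes, which bears on duplicated genes.

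Genes with 10 or more counts in all (25446) entered 1 fit of all libraries with edgeR 4.0.16 (TMM factors, quasi-likelihood test, Benjamini-Hochberg adjustment over all genes, R 4.3.3). A call needs an adjusted p under 0.01 and a log2 fold change past 0.58, and for the difference between states the adjusted p alone. CPM uses TMM-scaled library sizes. Log2 fold changes hold edgeR's prior count. Each SE is the absolute log2 fold change divided by the square root of the F statistic of the quasi-likelihood test. Alternatives were DESeq2 1.42.0, other factors, filters, transcript-length offsets, a replicate block and leaving out each library. Replicates of a group differed by more than sampling noise in every pair (chi-square 2.84 to 16.4 times its degrees of freedom). Sequencing depth covers counting error only.

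Coordinates, coding sequences and promoters came from GENCODE vM39 on GRCm39, in which 56620 of 57180 gene identifiers were found. KRAB stretches were sought by pattern in the first 200 residues, and identity is the share of equal residues in a global alignment over the longer protein. Genes named in full were Trim28, in each pairwise comparison the 3 called members with the largest rise and the 3 with the largest fall, and those called for the difference between states. Zfp956, Zfp961, Zfp951 and Zfp993 were added after their values were seen. Members and lists were chosen with earlier results of these data known.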

Additional observations from a re-analysis of the deposited data

Results flagged for a closer look

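The effect of 3xKD differed between ESCs and EpiLCs for 10 members, by the test of the difference itself (log2 fold change in EpiLCs minus that in ESCs, edgeR). The differences were 1.05 for Zfp934, 0.86 for Zfp937, 0.63 for Zfp936, 0.55 for Zfp987, 0.45 for Zfp992, 0.42 for Zfp977, 0.41 for Zfp979, 0.38 for Zfp988, 0.27 for Zfp985 and 0.25 for Zfp980. All are above 0, and the cause was not tested. Groups of 3 libraries are too small to look for single libraries that stand apart.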

How the results depend on the processing

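With other scaling factors, DESeq2, other filters, transcript-length offsets or only the compared groups, no member count left a range of 1.5 times its reported value, except that transcript-length offsets called 3 members for the difference between states in place of 10. Those offsets also gave 22 in place of 33 in ESCs, which is exactly at the limit of that range. They gave 13 in place of 18 in EpiLCs, and 15 and 18 in place of 16 and 23 for the change between states. With an adjusted p under 0.05 and no fold limit, 53 members were called for 3xKD in ESCs and 47 in EpiLCs. For EpiLCs against ESCs the counts were 40 in Neg and 44 in 3xKD. Shares of all genes at 0.05 are not given, so these 4 counts have no scale. By adjusted p alone at 0.01, 3915 of the 17049 genes were higher and 4012 lower for 3xKD in ESCs. In EpiLCs 3589 were higher and 3934 lower. For EpiLCs against ESCs, 4266 were higher and 4507 lower in Neg, and 3912 and 4464 in 3xKD. Leaving out each library in turn gave 28 to 34 for 3xKD in ESCs, 17 to 19 in EpiLCs, 13 to 19 and 20 to 25 for the change between states in Neg and 3xKD, and 8 to 10 for the difference. Same-numbered libraries did not deviate together (correlations -0.13 to 0.10). With a replicate block, 33, 18, 15, 24 and 10 members were called, against 33, 18, 16, 23 and 10. Of 704 recomputed fold changes of genes given in full, none turned its sign, 37 lost the call and 1 gained it. Of those lost, Zfp980 (difference between states) lost it without 8 of the 12 libraries, Zfp977 without 4, Zfp985 without Neg EpiLC replicate 1, Zfp988 without 3xKD EpiLC replicate 3, Zfp941 without 3xKD ESC replicate 1 or 3xKD EpiLC replicate 3, and Zfp963 without any Neg ESC library or Neg EpiLC replicate 2 or 3. The level of 0.5 CPM kept 65 members, 0.2 CPM 66 and 1 CPM 62. Zfp965, Zfp972 and Zfp996, at 0.968 to 1.70 CPM, had standard errors of 0.337 to 0.797 on the log2 scale in the comparisons of 3xKD with Neg.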

Other observations

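No Zfp900-series gene lies on chromosome 16, whose 502 other genes at 0.5 CPM or more had median log2 fold changes of 0.29 in 3xKD ESCs and 0.31 in 3xKD EpiLCs, against -0.04 to 0.05 on each of the other chromosomes. These values were looked at after the results were known.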
